A study of Mus musculus with 12 samples.

Results

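Tyrobp, Fcer1g, Fcgr2b and Syk, 4 genes of Fc receptor and ITAM signalling chosen by name, were followed among the 561 genes counted in splenic erythroid cells of the mouse. Cells carrying Ter-119, a surface antigen of the red cell lineage, had been enriched with magnetic beads from the spleens of male F1 mice of CBA and C57BL/6 parents, aged 3 to 5 months. RNA of 500000 cells per sample was hybridised to the nCounter Mouse Immunology v1 panel, on which barcoded probes are counted without amplification. The acute hypoxia group (4 samples) came from mice that had spent 16 h in a hypobaric chamber at −46 kPa, stated to equal an altitude above 4500 m. The acute blood loss group (4 samples) came from mice bled of 0.5 to 0.8 mL from the retro-orbital sinus under isoflurane, and the normal group (3 samples used) from mice left under standard conditions. All spleens were taken on day 3. A deposited column for Normal 4 was left out, because in 561 of 561 genes its raw count was 3 more than the median of the other normal columns. The labels do not tie samples to animals, so p-values measure the spread between these samples, which may be technical.

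ITAMs are short tyrosine motifs in the cytoplasmic tails of receptors and of the adaptors that serve them. Once Src family kinases phosphorylate the motif, it recruits the kinase Syk, which passes the signal to downstream adaptors and enzymes. Tyrobp (also called DAP12) and Fcer1g (the common gamma chain) are such adaptors. They have almost no extracellular part and carry the signal of activating receptors on myeloid and NK cells, Fc receptors for IgG and IgE included in the case of Fcer1g. Fcgr2b encodes the inhibitory receptor for IgG, whose tail holds an inhibitory motif and which restrains B cells and myeloid cells. In the spleen these genes are known chiefly from macrophages, granulocytes, NK cells and B cells.

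The genes lie on 3 chromosomes. Fcgr2b and Fcer1g are both on chromosome 1, where the order of genes runs Fcgr2b, Fcgr4, Fcgr3, then 7 genes of other kinds, then Fcer1g. Tyrobp is on chromosome 7 and Syk on chromosome 13. The RefSeq promoter windows (GRCm38.p6, 250 bases before the start of the gene to 50 after it) of the neighbouring pair on chromosome 1 are shown because both genes fell after hypoxia, under each library factor tried. The window of Fcer1g is chr1:171234300-171234599 and that of Fcgr2b is chr1:170976022-170976321, both on the minus strand and written 5′ to 3′. Capitals mark GGAA or its reverse complement TTCC, the core of the motif bound by ETS family factors.
Fcer1g: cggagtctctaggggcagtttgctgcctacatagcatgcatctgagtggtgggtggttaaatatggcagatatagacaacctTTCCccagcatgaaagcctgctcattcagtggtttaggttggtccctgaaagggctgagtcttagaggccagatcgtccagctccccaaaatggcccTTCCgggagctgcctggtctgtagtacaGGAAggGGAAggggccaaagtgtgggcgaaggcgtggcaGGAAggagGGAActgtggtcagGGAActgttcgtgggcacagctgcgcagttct
Fcgr2b: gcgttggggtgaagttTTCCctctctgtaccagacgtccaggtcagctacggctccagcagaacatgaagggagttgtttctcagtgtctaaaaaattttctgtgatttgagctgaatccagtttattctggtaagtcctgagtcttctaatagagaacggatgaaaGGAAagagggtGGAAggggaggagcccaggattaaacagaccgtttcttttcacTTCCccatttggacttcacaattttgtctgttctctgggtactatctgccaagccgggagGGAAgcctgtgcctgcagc
The core occurred 7 times in the Fcer1g window and 5 times in the Fcgr2b window. At least 1 copy is present in 96.0% of the 32851 promoter windows of the table, with a median of 3 copies. As many copies as in Fcer1g were found in 8.02% of windows, and as many as in Fcgr2b in 28.6%. The letters GATAA or TTATC, bound by GATA factors, occur in 25.4% of windows and in neither of these. Syk, whose call after hypoxia did not hold under other library factors, has 2 windows in the table, with 0 and 3 copies of the ETS core, and the second holds the GATA letters once. These matches describe the letters of the windows.

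Total counts were between 44254 and 81370 in hypoxia samples, between 7016 and 31006 in blood loss samples and between 43956 and 253712 in normal samples, so precision was lowest after blood loss. Levels below are raw counts divided by a library factor, the geometric mean of 6 housekeeping genes, and are called scaled counts. These housekeeping genes were themselves uneven after scaling: Eef1g averaged 347 ± 50.2 after blood loss and 661 ± 104 in normal samples, and Polr2a 388 ± 114 after blood loss and 203 ± 35.3 in normal samples (SD, n = 4 and n = 3). Rpl19 varied widely among normal samples, at 1253 ± 940, against 1723 ± 69.4 after hypoxia and 1276 ± 107 after blood loss (SD, n = 3, 4 and 4). Each gene has its own probes, so levels are compared between samples and not between genes. Normal 1 held the lowest scaled count of the normal samples for each of the 4 genes. Of 10 erythroid and progenitor markers, 4 were among the genes counted (Tfrc, Tal1, Kit and Cd55). Their summed level was 315 to 929 in hypoxia, 405 to 719 in blood loss and 332 to 606 in normal samples. The 929 was Acute hypoxia 2, and the other hypoxia samples stood at 315 to 394. In each comparison with normal, 2 of the 3 tested were called higher and 1 lower (adjusted p under 0.05, edgeR). Over all tested genes 7.09% were called higher and 36.5% lower after hypoxia, and 9.22% and 17.0% after blood loss. The other 6 of the 10 markers, Gata1, Klf1, Epor, Alas2 and Slc4a1 among them, were not analysed here. Ptprc, which encodes CD45, the leukocyte antigen of the series' title, was detected in all 11 samples.

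The Tyrobp adaptor was lower after both treatments. In Acute hypoxia 1, 2, 3 and 4 its scaled counts were 75.1, 89.5, 69.6 and 79.3. In Acute blood loss 1, 2, 3 and 4 they were 160, 96.7, 252 and 87.2. In Normal 1, 2 and 3 they were 264, 578 and 442. Every sample of either treatment thus lay below every normal sample, although Acute blood loss 3 came close to Normal 1. The hypoxia samples were also tightly grouped, with a highest-to-lowest ratio of 1.29, against 2.89 after blood loss and 2.19 in normal samples. Tyrobp averaged 78.4 ± 8.42 after hypoxia and 428 ± 157 in normal samples (SD, n = 4 and n = 3), a difference of −2.46 on the log2 scale (SE 0.32, adjusted p = 2.25e-06, edgeR quasi-likelihood test with Benjamini-Hochberg adjustment over 282 tested genes). After blood loss it averaged 149 ± 76.0 (SD, n = 4), a log2 fold change against normal of −1.62 (SE 0.33, adjusted p = 0.000955, edgeR). These are RNA levels of a mixed preparation, in which fewer cells of a type and less RNA per cell cannot be told apart.

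Fcer1g, the gamma chain adaptor, was the least counted of the 4 genes. Its scaled counts were 14.5, 25.6, 7.99 and 12.9 in Acute hypoxia 1 to 4. In Acute blood loss 1 to 4 they were 70.7, 25.5, 14.8 and 33.7, and in Normal 1, 2 and 3 they were 35.0, 77.0 and 59.8. The hypoxia samples all lay below the normal samples, while the blood loss samples spread over both ranges. Behind these levels stood 14 to 26 raw counts after hypoxia, 2 to 24 after blood loss and 31 to 370 in normal samples. The value of Acute blood loss 3 rests on 2 counts, with an exact Poisson 95% interval of 1.80 to 53.6 scaled counts, which covers counting error only. Fcer1g averaged 15.2 ± 7.42 after hypoxia and 57.3 ± 21.1 in normal samples (SD, n = 4 and n = 3), a difference of −1.99 on the log2 scale (SE 0.36, adjusted p = 0.000111, edgeR). After blood loss the mean was 36.2 ± 24.3 (SD, n = 4) and the difference from normal did not pass the threshold (log2 fold change −0.63, SE 0.38, adjusted p = 0.220, edgeR).

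Fcgr2b, the inhibitory receptor, had scaled counts of 104, 74.8, 102 and 154 in Acute hypoxia 1 to 4. It had 83.0, 181, 282 and 187 in Acute blood loss 1 to 4. In Normal 1, 2 and 3 it had 165, 349 and 288. The highest hypoxia sample lay just under the lowest normal sample, and the blood loss samples overlapped with both other groups. The mean was 109 ± 33.1 after hypoxia and 267 ± 93.5 in normal samples (SD, n = 4 and n = 3), a difference of −1.30 on the log2 scale (SE 0.33, adjusted p = 0.00222, edgeR). After blood loss the mean was 183 ± 81.2 (SD, n = 4), with a log2 fold change against normal of −0.59 that did not pass (SE 0.34, adjusted p = 0.179, edgeR). Without Normal 1 that difference was −0.85 and passed (adjusted p = 0.0423, edgeR).

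Syk, the kinase that binds phosphorylated ITAMs, showed the smallest differences of the 4 genes against normal. Its scaled counts were 226, 197, 266 and 257 in Acute hypoxia 1 to 4. In Acute blood loss 1 to 4 they were 237, 433, 408 and 322, and in Normal 1, 2 and 3 they were 255, 468 and 475. Acute hypoxia 3 and 4 lay above Normal 1, so the groups overlapped. The mean was 236 ± 31.6 after hypoxia and 400 ± 125 in normal samples (SD, n = 4 and n = 3), a log2 fold change of −0.76 that passed narrowly (SE 0.29, adjusted p = 0.0346, edgeR). This call was lost without Normal 2, Normal 3, Acute hypoxia 1, Acute hypoxia 2 or Acute hypoxia 3, each left out in turn, with log2 fold changes over all samples left out of −0.99 to −0.62. After blood loss Syk averaged 350 ± 89.0 (SD, n = 4), and the log2 fold change against normal of −0.20 did not pass (SE 0.29, adjusted p = 0.613, edgeR).

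**Figure D1:**
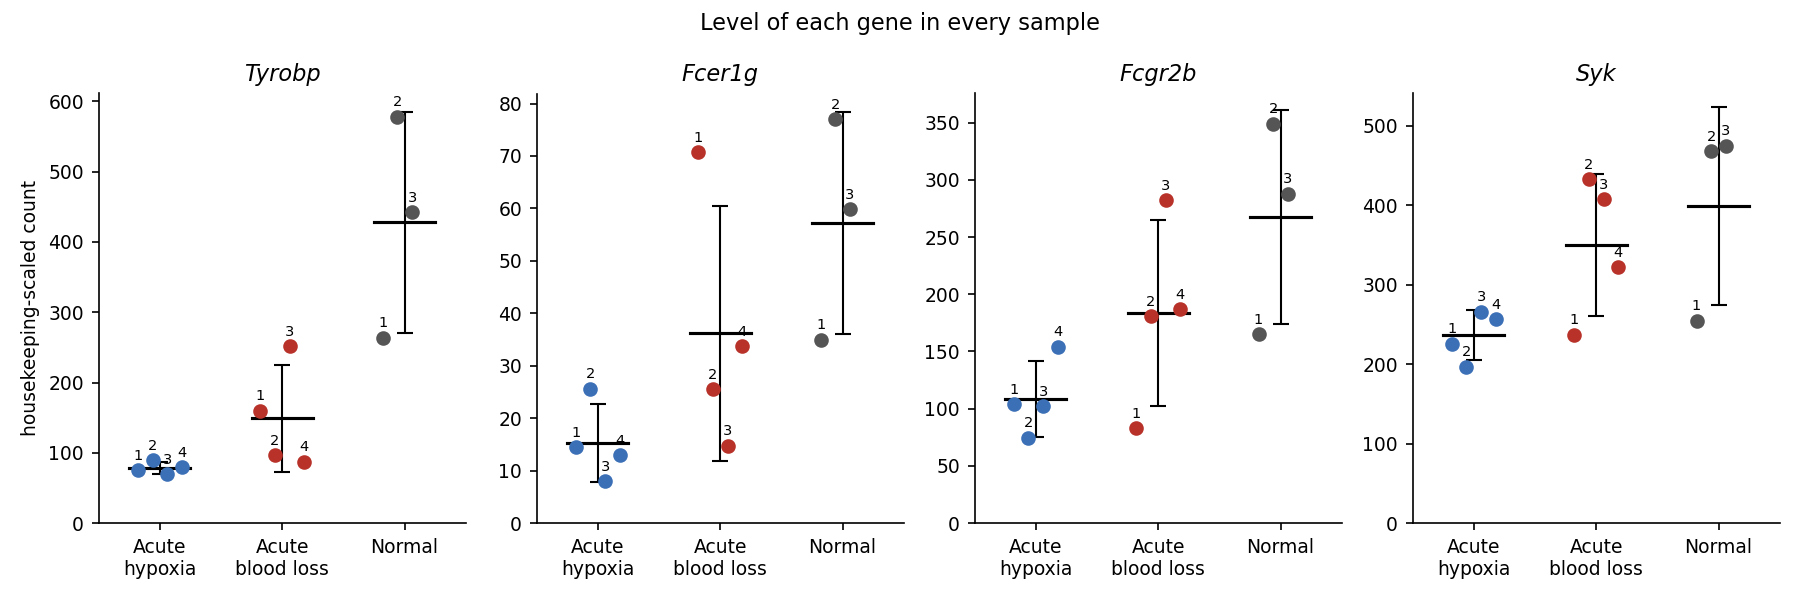
Housekeeping-scaled counts (linear axes starting at 0, one scale per gene) of the 4 genes in every Acute hypoxia, Acute blood loss and Normal sample. Points are samples with their replicate numbers, horizontal bars are group means and vertical bars are ± 1 SD. Tyrobp is between 69.6 and 89.5 in the hypoxia samples and at 264 or more in the normal samples, while the groups of Syk overlap.

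After hypoxia 4 of the 4 genes were called lower than normal, where 36.5% of all 282 tested genes were called lower and 7.09% higher, and the median over these genes was a log2 fold change of −0.56. Relative to that median, the log2 fold changes were −1.89 for Tyrobp, −1.43 for Fcer1g, −0.74 for Fcgr2b and −0.20 for Syk. The hypoxia and normal samples did not overlap for Tyrobp, Fcer1g and Fcgr2b, a pattern with hypoxia lower that 35.5% of tested genes showed. Among all tested genes, ordered from the most lowered, Tyrobp stood at place 11, Fcer1g at 17, Fcgr2b at 57 and Syk at 108. After blood loss 1 of the 4 genes, Tyrobp, was called lower, against 17.0% of tested genes called lower and 9.22% higher, with a median of −0.26. Tyrobp stood at place 13 there, and the other 3 genes at places 90 to 150. It was also the only one of the 4 whose blood loss and normal samples did not overlap, which with blood loss lower held for 16.7% of tested genes.

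The adaptors and the kinase were also compared between the treatments, in a contrast that shares its samples with those above. Of the 4 genes, Fcer1g was called lower after hypoxia than after blood loss (log2 fold change −1.36, SE 0.40, adjusted p = 0.0306, edgeR), where 10.6% of tested genes were called lower and 0.709% higher. Its samples overlapped between the treatments, as did those of the other 3 genes, where 12.8% of tested genes had every hypoxia sample below every blood loss sample. The call rested on single samples: without Acute blood loss 1, which held the highest Fcer1g level of its group, the log2 fold change was −0.91 (adjusted p = 0.160, edgeR). It was also lost without Acute blood loss 2 or 4 and without Acute hypoxia 1 or 3, each left out in turn, at log2 fold changes of −1.53, −1.44, −1.36 and −1.14. The log2 fold changes of Tyrobp, Fcgr2b and Syk, −0.84, −0.70 and −0.56, did not pass (adjusted p = 0.0802, 0.144 and 0.178, edgeR). That of Tyrobp passed without Normal 1 (−0.82, adjusted p = 0.0454, edgeR), and that of Fcgr2b without Acute blood loss 1 (−0.95, adjusted p = 0.0452, edgeR).

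The library factor moved these values, and the effect differed by gene. Of the 4 other scalings tried (TMM factors, size factors over all genes, 14 housekeeping genes, and the 6 without Rpl19), every one kept Tyrobp lower after both treatments, with log2 fold changes against normal of −2.28 to −1.85 after hypoxia and −2.03 to −1.33 after blood loss. The hypoxia calls of Fcer1g and Fcgr2b were kept under the same 4 scalings, and that of Syk under none, at −0.17, −0.28, −0.60 and −0.58 in that order. With Normal 1 as the only normal sample, assumed to vary like the other groups, the folds moved and the test had fewer samples: the calls of Fcer1g, Fcgr2b and Syk after hypoxia (−1.24, −0.59 and −0.11) and of Tyrobp after blood loss (−0.93) did not pass, while Tyrobp after hypoxia still did. With limma on the deposited log2 values, Fcer1g, Fcgr2b and Syk after hypoxia (−1.48, −0.83 and −0.28) did not pass either. Under size factors over all genes, Fcer1g and Fcgr2b were also called lower after blood loss (−0.94, adjusted p = 0.0431, and −1.02, adjusted p = 0.00862, edgeR), and so was Fcer1g with 14 housekeeping genes (−0.92, adjusted p = 0.0453, edgeR). Size factors called 43.3% of all tested genes lower after blood loss, with a median of −0.64. The 14 housekeeping genes called 33.0% lower, with a median of −0.55. Between the treatments the sign of Tyrobp, Fcgr2b and Syk turned under size factors (0.06, 0.21 and 0.35), and the call of Fcer1g was lost under size factors (−0.59), TMM factors (−1.12) and 14 housekeeping genes (−0.89). The scalings also moved all genes together. TMM factors brought the median of all tested genes to 0.03 in both comparisons with normal, with 57 genes called higher and 53 lower after hypoxia and 41 higher and 37 lower after blood loss. The factors used here had given 20 higher and 103 lower after hypoxia and 26 higher and 48 lower after blood loss. Between hypoxia and blood loss, size factors gave 93 higher and 3 lower, with a median of 0.54, where the factors used here had given 2 higher and 30 lower.

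**Figure D2:**
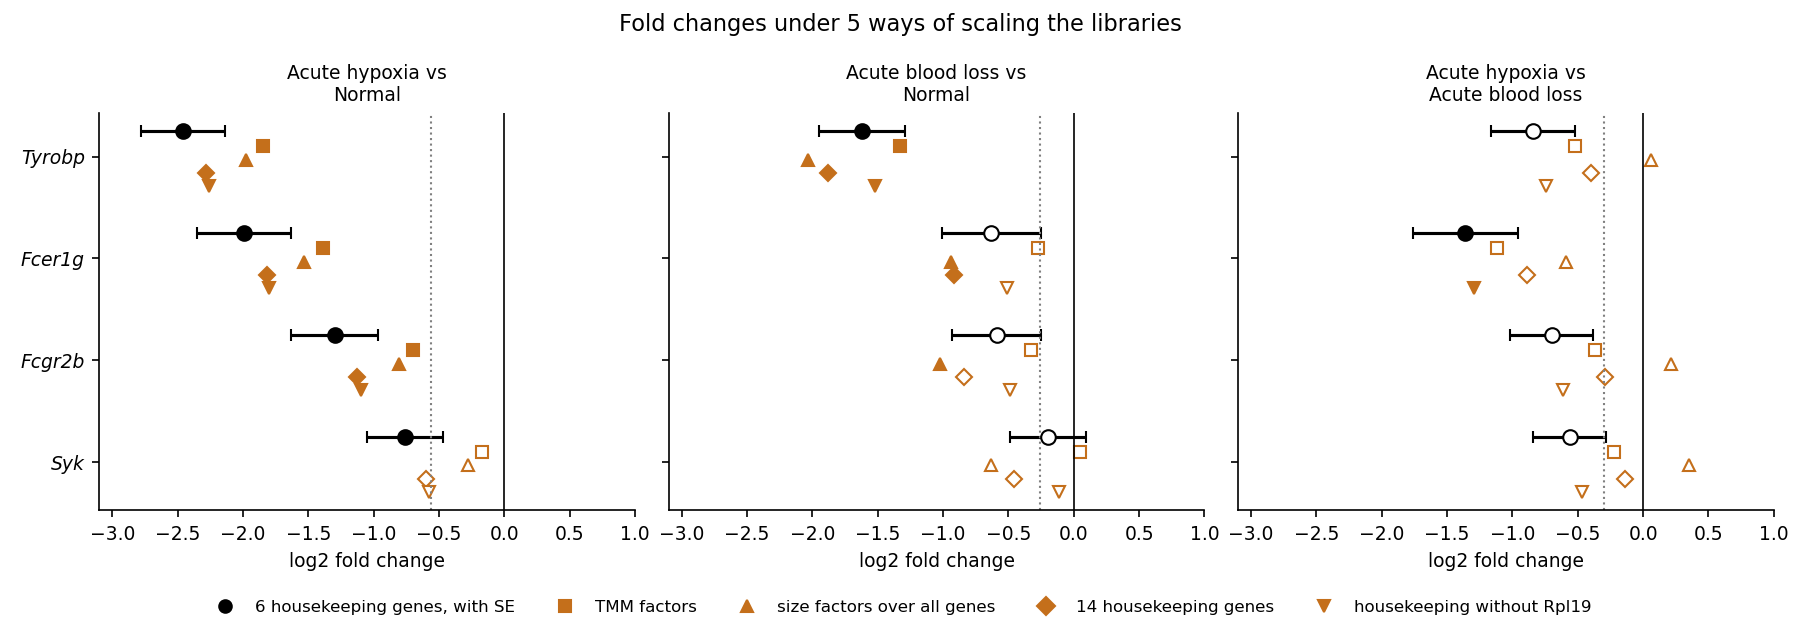
Log2 fold changes of the 4 genes in the 3 comparisons, under the 6-gene housekeeping factor (black, with the SE as bar) and 4 other library factors (orange). Filled symbols passed an adjusted p of 0.05, open ones did not, and the dotted line is the median of all tested genes under the 6-gene factor. Tyrobp is filled under all 5 factors against normal, and Syk is filled under 1.

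In the authors' normalized counts, which divide each column by a factor of its own, Tyrobp was again lower in every treated sample than in any normal sample, at 114 to 124 after hypoxia, 77.6 to 157 after blood loss and 351 to 534 in normal samples. Fcer1g ran from 13.1 to 34.1 after hypoxia, 8.98 to 69.4 after blood loss and 46.4 to 71.1 in normal samples, with the hypoxia group still below normal. For Fcgr2b these ranges were 99.7 to 223, 81.5 to 175 and 219 to 327, so on this scale the blood loss group, and not the hypoxia group, was clear of normal. How many of all tested genes were without overlap on this scale was not counted. With limma on the deposited log2 values, 122 of the 282 tested genes were called lower after blood loss, with a median of −0.69. After hypoxia 38 were, with a median of −0.10. Syk ran from 262 to 436 after hypoxia, 232 to 347 after blood loss and 339 to 540 in normal samples, overlapping throughout. In scaled counts the means of all 4 genes ran in the order hypoxia, blood loss, normal from low to high. In the authors' normalized counts normal remained highest, but the treatments changed places or met, at 118 ± 4.79 after hypoxia and 117 ± 43.5 after blood loss for Tyrobp, 166 ± 50.8 and 143 ± 43.1 for Fcgr2b, and 361 ± 72.4 and 282 ± 52.7 for Syk (SD, n = 4 each). For Fcer1g the means were 22.5 ± 8.94 after hypoxia and 32.6 ± 26.2 after blood loss.

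Ratios between genes within a sample do not depend on any library factor. Of 10 such ratios per comparison (6 between the genes and 4 to Ptprc), none passed an exact permutation test after Benjamini-Hochberg adjustment, but 4 samples against 3 cannot give a two-sided p below 0.0571. The raw count ratio of Tyrobp to Syk was 0.332, 0.455, 0.261 and 0.309 in Acute hypoxia 1 to 4. It was 0.675, 0.224, 0.618 and 0.271 in Acute blood loss 1 to 4 and 1.04, 1.24 and 0.930 in Normal 1 to 3. Both treatments lay below normal without overlap, by a mean log2 difference of −1.67 after hypoxia (exact p = 0.0571, adjusted p = 0.143) and −1.41 after blood loss (exact p = 0.0571, adjusted p = 0.457). The adaptor was thus lower relative to the kinase in 8 of 8 treated samples than in any normal sample. The log2 fold change of Syk lay near the median of all tested genes (−0.20 from it after hypoxia and 0.05 after blood loss). How many other tested genes lacked overlap in such a ratio was not counted, for this ratio or those below.

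Set against CD45, the Tyrobp to Ptprc ratio was 0.230 to 0.355 after hypoxia, 0.210 to 0.723 after blood loss and 0.579 to 0.998 in normal samples. The hypoxia group was below normal without overlap (mean log2 difference −1.50, exact p = 0.0571, adjusted p = 0.143), and the blood loss group overlapped (−0.90, exact p = 0.171, adjusted p = 0.457). The level of Ptprc itself was 281 ± 26.9 scaled counts after hypoxia and 517 ± 61.3 in normal samples (SD, n = 4 and n = 3), a difference of −0.88 on the log2 scale (SE 0.28, adjusted p = 0.0117, edgeR) that did not pass under TMM or size factors (−0.32 and −0.43) or without Normal 2 (−0.79, adjusted p = 0.0562, edgeR). Syk followed CD45 more closely than Tyrobp did. The Syk to Ptprc ratio differed from normal by a mean log2 of 0.17 after hypoxia (exact p = 0.629, adjusted p = 0.629) and 0.51 after blood loss (exact p = 0.114, adjusted p = 0.457). Between the treatments it was 0.781 to 0.879 after hypoxia and 0.906 to 1.29 after blood loss, without overlap (−0.34, exact p = 0.0286, the smallest possible with 4 against 4, adjusted p = 0.286). The ratios of Fcer1g and Fcgr2b to Ptprc differed from normal less than that of Syk after blood loss (−0.14 and 0.08). After hypoxia they differed more (−1.08 and −0.40).

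The pair of adaptors was compared in the same way. The raw count ratio of Tyrobp to Fcer1g was 7.55, 7.50 and 7.38 in Normal 1, 2 and 3, values closer to each other than the counts can resolve, since Normal 1 rests on 31 counts of Fcer1g (exact Poisson 95% interval 21.1 to 44.0). It was 5.19, 3.50, 8.71 and 6.13 in Acute hypoxia 1 to 4, and 2.26, 3.80, 17.0 and 2.58 in Acute blood loss 1 to 4, where Fcer1g had 14 to 26 and 2 to 24 counts and the highest ratio rests on 2. On the log2 scale the SD was 0.55 after hypoxia and 1.34 after blood loss, against 0.02 in normal samples, and how much of this spread is counting error was not tested. The means did not differ by a passing test (−0.42 after hypoxia against normal, exact p = 0.229, adjusted p = 0.286, and −0.76 after blood loss against normal, exact p = 0.400, adjusted p = 0.653). The Tyrobp to Fcgr2b ratio was 0.515 to 1.20 after hypoxia, 0.466 to 1.93 after blood loss and 1.53 to 1.66 in normal samples. Fcgr2b to Syk lay at 0.380 to 0.601 after hypoxia, 0.351 to 0.691 after blood loss and 0.606 to 0.745 in normal samples. Hypoxia was below normal without overlap in both of these ratios (mean log2 difference −1.11 and −0.57, exact p = 0.0571 and adjusted p = 0.143 for each).

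**Figure D3:**
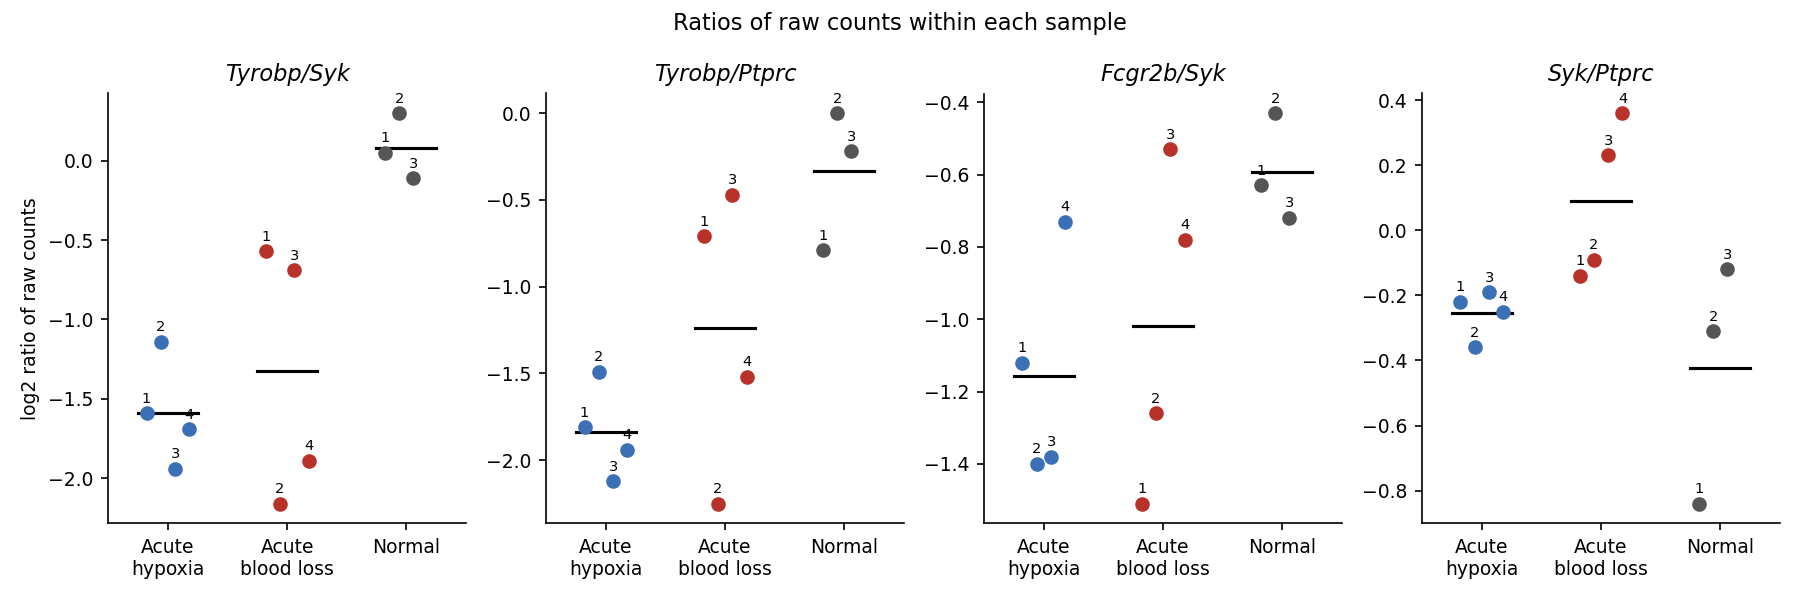
Log2 ratios of raw counts within each sample (vertical axes with their own range per panel) for Tyrobp over Syk, Tyrobp over Ptprc, Fcgr2b over Syk and Syk over Ptprc, in Acute hypoxia, Acute blood loss and Normal samples. Points are samples with their replicate numbers and bars are group means. Both treated groups lie below normal for Tyrobp over Syk, and the hypoxia group lies below blood loss for Syk over Ptprc.

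Other receptors and enzymes of the pathway were taken from lists of 63 genes, written with earlier results of these data known. Of these, 39 were among the genes counted and 18 passed the filter on low counts (a raw count of 20 or more in at least 3 samples). After hypoxia 12 of the 18 were called lower than normal and 0 higher, against 36.5% of all tested genes called lower, with a median log2 fold change of −1.10 against −0.56 over all tested genes. The other scalings called 7 to 10 of them lower, where 18.8% to 29.8% of all tested genes were. With limma on the deposited log2 values 3 were called lower, where 38 of all 282 tested genes were. After blood loss 6 were called lower and 0 higher, against 17.0% of all tested genes called lower, with a median of −0.56 against −0.26. The other scalings called 5 to 12 lower there, where 13.1% to 43.3% of all tested genes were. Limma called 11 lower and 0 higher there, where 122 of all 282 tested genes were called lower. Of the 18 genes, 4 (Cd3e, Cd79a, Trem1 and Klra8) reached 20 counts in fewer than 3 treated samples and so passed the filter only through the normal samples. Of the other 14, 9 were lower after hypoxia and 5 after blood loss, against 30.5% and 16.1% of the 223 tested genes that passed without the normal samples. In both comparisons with normal, edgeR, DESeq2 and limma each had 0 of the 18 higher at an unadjusted p under 0.05. They had 13, 13 and 9 lower after hypoxia and 8, 7 and 12 lower after blood loss. Shares of all tested genes at an unadjusted p were not counted. Of all 59 tested genes that passed only through the normal samples, 2 were called higher after blood loss and 0 after hypoxia. For the 4 such genes among the 18, the absence of higher calls thus says little. Between hypoxia and blood loss 2 of the 18 were called lower, Cd247 and Btla, and 0 higher in edgeR (6 lower and 0 higher at an unadjusted p under 0.05). There DESeq2 called 3 lower and 0 higher, where 43 of all 282 tested genes were called lower and 5 higher. The edgeR fit called 10.6% of all tested genes lower there. Size factors in edgeR, and limma on the deposited log2 values, called 4 higher and 0 lower. Of all 282 tested genes, size factors called 93 higher and 3 lower there, and limma 95 higher and 5 lower. The higher calls among the 18 thus do not stand out from those over all tested genes.

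Fc receptors other than Fcgr2b were too thinly counted to test. Of 7 among the genes counted, the activating receptor genes Fcgr1, Fcgr3 and Fcgr4 and the IgG transporter gene Fcgrt reached a count of 20 in 2 samples each. Raw counts of Fcgr3 were 2 to 13 after hypoxia, 2 to 9 after blood loss and 13 to 166 in normal samples. Those of Fcgr4 were 4 to 12, 1 to 6 and 8 to 141, and those of Fcgr1 were 1 to 7, 1 to 4 and 1 to 64 in the same order of groups. Fcer1a, the ligand-binding chain of the IgE receptor of mast cells and basophils, had 2 to 5, 1 to 9 and 3 to 19 raw counts. Hcst, an adaptor related to Tyrobp that pairs with Klrk1, had 2 to 6, 2 to 5 and 3 to 61. Raw counts take no account of depth, which was greatest in Normal 2 and Normal 3, so these ranges do not compare levels.

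Receptors that signal through Tyrobp or Fcer1g were tested in 3 cases, Klra8, Trem1 and Clec4e, of which Klra8 and Trem1 passed the filter only through the normal samples. Klra8, an activating NK cell receptor that pairs with Tyrobp, averaged 2.50 ± 1.60 scaled counts after hypoxia, 8.49 ± 4.84 after blood loss and 28.1 ± 4.06 in normal samples (SD, n = 4, 4 and 3). No treated sample reached a raw count of 20 for it, so that only a gene high in normal samples could have been tested at such treated counts. It fell after hypoxia (log2 fold change −3.38, SE 0.45, adjusted p = 2.44e-06, edgeR) and after blood loss (−1.85, SE 0.51, adjusted p = 0.00870, edgeR), under all 5 scalings. Trem1, a Tyrobp-coupled receptor of neutrophils and monocytes, fell after hypoxia (−1.64, SE 0.40, adjusted p = 0.00165, edgeR), with −0.40 after blood loss (adjusted p = 0.518). Clec4e, a lectin receptor that signals through Fcer1g, was called lower after hypoxia (−1.02, SE 0.36, adjusted p = 0.0226, edgeR) but under none of the other 4 scalings (−0.86 to −0.43).

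Among the 5 tested ITAM-bearing chains of lymphocyte antigen receptors, 3 were called lower after hypoxia and 2 after blood loss. Of all tested genes 36.5% and 17.0% were called lower. Cd3e and Cd79a passed the filter only through the normal samples. Of the other 3 chains, 2 were lower in each comparison, against 30.5% and 16.1% of the 223 genes that passed without the normal samples. Cd3d, of the T cell receptor complex, fell after hypoxia (log2 fold change −1.39, adjusted p = 0.00123, edgeR) and after blood loss (−1.78, adjusted p = 0.00221, edgeR). Cd79b, of the B cell receptor, averaged 233 ± 41.0 after hypoxia, 207 ± 48.9 after blood loss and 519 ± 162 in normal samples (SD, n = 4, 4 and 3). Both of its differences from normal passed (−1.16 and −1.32, adjusted p = 0.00180 and 0.00183, edgeR), the first not under TMM factors (−0.57, adjusted p = 0.0506, edgeR). Cd3e, tested only through its counts in normal samples, was called lower after hypoxia (−1.26, adjusted p = 0.00153, edgeR), likewise not under TMM factors (−0.71, adjusted p = 0.0632, edgeR).

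Of the 5 kinases and downstream adaptors tested, 2 were called lower in each comparison with normal, and their median log2 fold changes were −0.42 after hypoxia and −0.44 after blood loss, against −0.56 and −0.26 over all tested genes. After hypoxia that count is near the 36.5% of all tested genes. After blood loss 17.0% of all tested genes were called lower. Btk, a kinase of B cells and myeloid cells that acts downstream of Syk, averaged 32.5 ± 1.44 after hypoxia and 81.5 ± 24.9 in normal samples (SD, n = 4 and n = 3) and fell (log2 fold change −1.35, adjusted p = 0.000928, edgeR). Lck, a Src family kinase of T and NK cells, fell after hypoxia (−1.34, adjusted p = 0.00153, edgeR) and was called lower after blood loss (−1.12, adjusted p = 0.0211, edgeR). The second Lck call was lost under TMM factors (−0.94, adjusted p = 0.0539, edgeR) and when Normal 1 or either of Acute blood loss 1 and 4 was left out (−0.85, −0.98 and −0.99). Blnk, which links Syk to Btk in B cells, was called lower after blood loss (−0.99, adjusted p = 0.0177, edgeR) and had −0.42 after hypoxia (adjusted p = 0.224). Leaving out Normal 2, Normal 3 or Acute blood loss 4 ended that call (−0.80, −0.88 and −0.90). Fyn and Prkcd passed in neither comparison, at 0.36 and −0.14 after hypoxia and 0.23 and −0.30 after blood loss.

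Of 5 tested inhibitory receptors and phosphatases, 4 were called lower after hypoxia, with 2 under TMM or size factors, and 1 was called lower after blood loss. Of all tested genes 36.5% were called lower after hypoxia, 18.8% and 22.3% under TMM and size factors, and 17.0% after blood loss. Ptpn6, which encodes the phosphatase SHP-1 that is recruited by inhibitory motifs, averaged 76.9 ± 34.3 after hypoxia, 102 ± 6.80 after blood loss and 275 ± 60.1 in normal samples (SD, n = 4, 4 and 3). It fell after hypoxia (log2 fold change −1.83, adjusted p = 2.68e-05, edgeR) and after blood loss (−1.45, adjusted p = 0.00112, edgeR), under all 5 scalings. Cd22, an inhibitory receptor of B cells, fell after hypoxia (−2.05, adjusted p = 0.000279, edgeR). Btla, an inhibitory receptor of lymphocytes, was called lower after hypoxia (−1.03, adjusted p = 0.00793, edgeR), though not under TMM or size factors (−0.44 and −0.56) or without Normal 2 (−0.84). Ptpn22, a phosphatase of lymphocytes, was called lower after hypoxia (−0.77, adjusted p = 0.0431, edgeR) under none of the other scalings, and 8 of the 11 fits with 1 sample left out did not call it. Against blood loss, the lower Btla of hypoxia (−1.21, adjusted p = 0.00965, edgeR) was lost without Acute blood loss 2 (−0.92) and under size factors or 14 housekeeping genes (−0.31 and −0.81). The lower Cd247, an ITAM-bearing chain of the T cell receptor complex (−1.03, adjusted p = 0.0358, edgeR), was lost under the other 4 scalings and in 5 of the 11 fits with 1 sample left out.

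**Figure D4:**
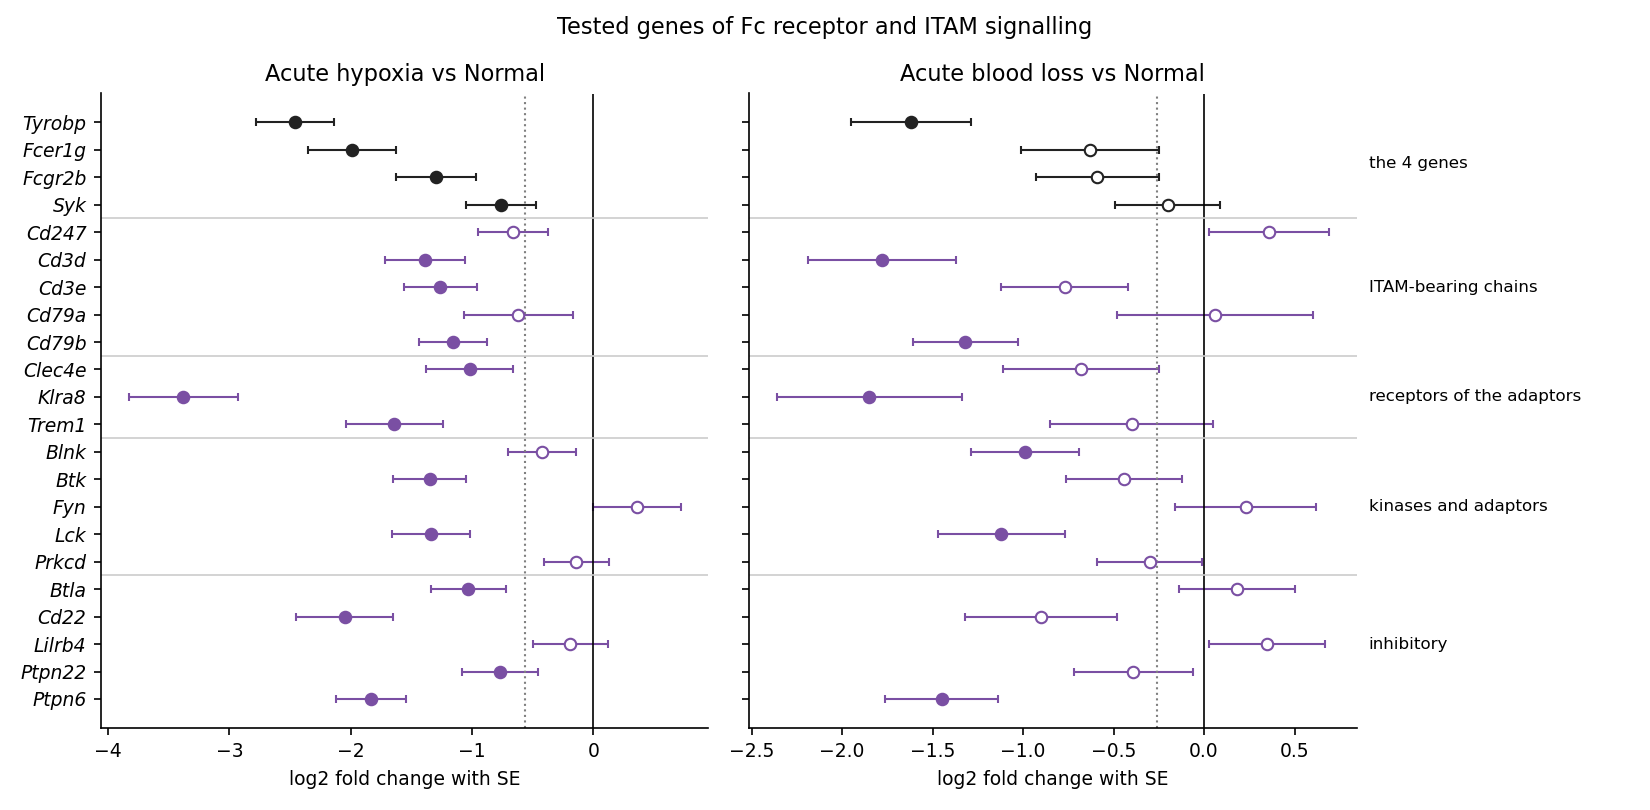
Log2 fold changes with SE of the 4 genes (black) and of 18 other tested genes of Fc receptor and ITAM signalling (purple), for Acute hypoxia over Normal at left and Acute blood loss over Normal at right, each with its own horizontal range. Filled points passed an adjusted p of 0.05, and the dotted line is the median of all tested genes. After hypoxia 12 of the 18 other genes are filled and lower, after blood loss 6. Of all tested genes 36.5% and 17.0% were called lower.

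Markers of other splenic cells moved in the same comparisons, and 8 of the 18 pathway genes are themselves in one of the marker lists. The summed scaled count of macrophage and monocyte markers (8 of 11 listed markers counted) was 32.0 to 79.7 after hypoxia, 112 to 166 after blood loss and 208 to 284 in normal samples. With the housekeeping factor used here, none of these ranges overlapped. These sums, and those of the other cell types below, are given under that factor only. Whether their ranges stay apart under other library factors was not tested. The 4 macrophage and monocyte markers tested (4 lower after hypoxia, 3 after blood loss) all passed the filter only through the normal samples, so their calls add nothing to the sums. For NK cell markers (8 of 10 counted) the sums were 33.8 to 46.1, 66.1 to 148 and 146 to 192, and the 4 markers tested (4 lower after hypoxia, 2 after blood loss) likewise passed only through the normal samples. In scaled counts the macrophage and NK cell sums lie lower in the groups in which Tyrobp is lower. Their part in the Tyrobp and Fcer1g results was not tested.

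B cell markers (8 of 8 counted), the type best known for Fcgr2b, summed to 1058 to 1742 after hypoxia, 1043 to 2076 after blood loss and 1670 to 3281 in normal samples. Of 8 tested, 4 were lower after hypoxia and 3 after blood loss. Over all tested genes, 36.5% were called lower and 7.09% higher after hypoxia. After blood loss 17.0% were called lower and 9.22% higher. T cell markers (8 of 9 counted) summed to 87.3 to 164, 111 to 181 and 227 to 396, with 5 of 7 tested lower after hypoxia, and 4 lower and 1 higher after blood loss. Of these 7 T cell markers, 5 passed the filter only through the normal samples. Granulocyte markers (8 of 10 counted) summed to 1719 to 3868, 3166 to 7154 and 1882 to 2664. Of 5 tested, 1 was higher and 2 lower after hypoxia, and 2 were higher and 1 lower after blood loss. S100a9 alone stood at 979 to 2270, 1769 to 4383 and 549 to 1178 scaled counts in the same order of groups. The 3 dendritic cell markers counted summed to 15.4 to 58.5 after blood loss and 21.8 to 30.5 in normal samples, with every hypoxia sample below both ranges, and the 1 tested, Itgax, reached 20 counts in normal samples only. The part of these cells in the Fcgr2b, Syk and pathway results was not tested.

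The lowest raw count of any gene in these samples was 1, so no marker could be listed at 0. Emr1 and Csf1r of macrophages had 9 to 28 and 8 to 19 raw counts after hypoxia, 3 to 18 and 3 to 15 after blood loss, and 40 to 439 and 36 to 369 in normal samples. Ms4a1 of B cells had 63 or more in every sample, and S100a8 and S100a9 of granulocytes 191 or more and 423 or more. Klrb1c and Ncr1, the defining NK cell markers, were not analysed here.

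Across the 11 samples the 4 genes did not share one pattern. Likeness was measured as the root mean square difference between 2 genes of log2 counts, each gene centred on its own mean, in which library factors cancel, and is given as a description with the groups and libraries shared by all points. Fcgr2b and Syk were the closest pair, at 0.37, where Syk stood at place 12 among the 281 other tested genes ordered by likeness to Fcgr2b and the median gene was at 0.76. Ordered by likeness to Syk, Fcgr2b stood at place 37, with the median gene at 0.61. The adaptors Tyrobp and Fcer1g were 0.81 apart, with a median gene at 0.97 from Tyrobp and 1.05 from Fcer1g. Fcer1g and Fcgr2b, the neighbours on chromosome 1, were 1.05 apart, with a median gene at 1.05 from Fcer1g and 0.76 from Fcgr2b. The distances of Fcer1g rest on 14 to 26 raw counts after hypoxia and 2 to 24 after blood loss. The part of counting error in them was not tested.

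The 3 genes nearest to Tyrobp were H2-Ob, a chain of a class II peptide-loading regulator, at 0.50, Prf1, the perforin of cytotoxic cells, at 0.51, and Icam2, an adhesion molecule, at 0.51. Nearest to Fcer1g were Icam2 at 0.59, Cebpb, a transcription factor of myeloid cells, at 0.62, and Ccl3, a chemokine, at 0.63. Fcgr2b lay nearest to Ikzf3, a lymphoid transcription factor, at 0.23, Cd48, a surface protein of leukocytes, at 0.26, and Gpr183, a receptor that guides B cell migration, at 0.30. Among those nearest to Syk were Cybb, a subunit of the phagocyte oxidase, at 0.22, and Il4ra, the interleukin 4 receptor chain, at 0.23.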

How the data were processed

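The authors deposited raw counts of 561 genes (14 housekeeping, 547 endogenous) in 12 columns, made on the panel named in the labels. Their normalized count signal, also deposited, equals the raw count over 1 factor per column. The deposited log2 values equal log2 of that signal plus 1, within 0.00500. The sources used here do not give the counting software or the handling of background, and the lowest raw count is 1. Groups and replicate numbers come from the titles.

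Raw counts of 11 samples were fitted together with edgeR 4.0.16 (robust quasi-likelihood, R 4.3.3), on group alone. A library's factor was the geometric mean of 6 housekeeping genes, those whose raw counts averaged 100 or more (Rpl19, Ppia, Polr2a, Oaz1, Gapdh, Eef1g). The test covered 282 genes that reached 20 raw counts in 3 or more samples, with calls at p under 0.05 after Benjamini-Hochberg adjustment. The smallest group has 3 samples. Ratios were compared by two-sided exact permutation tests over samples (scipy 1.17.1), adjusted over 10 ratios per comparison. Alternatives were other library factors, other filters, DESeq2 1.42.0, limma 3.58.1 on the deposited log2 values, other sample sets and a replicate block. The fit was tested on simulated counts.

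The 4 genes, the gene lists and the tests were chosen with earlier results of these data known. Beside the 4 genes, those named are the 3 most alike to each (of those for Syk, 1 is not reported here) and up to 6 called genes of a pathway list per comparison with the largest fold changes; genes given with values that did not pass were added afterwards, as were the promoter windows.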

Additional observations from a re-analysis of the deposited data

How the results depend on the processing

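Tyrobp after hypoxia against normal kept its direction and call under 12 of 12 alternatives and in all fits with 1 sample left out (−2.70 to −2.18). Its call after blood loss was lost with Normal 1 as the only normal sample (−0.93, adjusted p = 0.206, edgeR). That setting also ended the hypoxia calls of Fcer1g (−1.24), Fcgr2b (−0.59) and Syk (−0.11), turned Fcer1g, Fcgr2b and Syk after blood loss to 0.11, 0.10 and 0.44, and left 34 genes called after hypoxia and 22 after blood loss. With limma on the deposited log2 values, Fcer1g, Fcgr2b and Syk after hypoxia (−1.48, −0.83 and −0.28) no longer passed and Fcgr2b after blood loss did (−1.05). Between the treatments limma gave −0.26 for Fcer1g, no longer called, and 0.09, 0.21 and 0.35 for Tyrobp, Fcgr2b and Syk, with 137, 68 and 100 genes called for blood loss against normal, hypoxia against normal and hypoxia against blood loss.

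Size factors gave −0.28 for Syk after hypoxia, −0.94 and −1.02 for Fcer1g and Fcgr2b after blood loss, and −0.59, 0.06, 0.21 and 0.35 for Fcer1g, Tyrobp, Fcgr2b and Syk between the treatments. They called 136 genes after blood loss and 96 between the treatments. TMM factors gave −0.17 for Syk after hypoxia, 0.05 for Syk after blood loss and −1.12 for Fcer1g between the treatments. The 14 housekeeping genes gave −0.60 for Syk after hypoxia, −0.92 for Fcer1g after blood loss and −0.89 for Fcer1g between the treatments, where 7 genes were called. Without Rpl19 Syk after hypoxia was −0.58. With no filter 247, 196 and 235 genes were called for blood loss against normal, hypoxia against normal and hypoxia against blood loss, and Tyrobp between the treatments passed (−0.84). Among the pathway genes, the hypoxia calls of Cd79b, Trem1, Clec4e, Btk, Ptpn22, Cd22 and Btla and the blood loss calls of Cd79b, Klra8, Blnk and Ptpn6 were lost with Normal 1 as the only normal sample, and the hypoxia calls of Cd79b, Cd3d, Cd3e, Trem1, Clec4e, Btk, Lck, Ptpn22 and Btla with limma. With Normal 1 alone the test had fewer samples, and Klra8 after blood loss (−1.86, against −1.85) and Ptpn22 after hypoxia (−0.88, against −0.77) lost their calls at no smaller a fold change. The cause of these shifts was not tested.

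With 1 sample left out, 47 to 99, 86 to 146 and 12 to 51 genes were called in the same order. The log2 fold changes of Tyrobp, Fcer1g, Fcgr2b and Syk ran from −1.93 to −1.34, −1.08 to −0.36, −0.85 to −0.35 and −0.44 to −0.06 after blood loss. After hypoxia those of Fcer1g, Fcgr2b and Syk ran from −2.31 to −1.72, −1.54 to −1.06 and −0.99 to −0.62. Between the treatments the 4 ran from −1.05 to −0.53, −1.69 to −0.91, −0.95 to −0.48 and −0.70 to −0.43. Ratios that changed sign were those after blood loss of Fcer1g to Fcgr2b (−0.96 to 0.38), Fcer1g to Ptprc (−0.63 to 0.26) and Fcgr2b to Ptprc (−0.15 to 0.32), that after hypoxia of Syk to Ptprc (−0.04 to 0.32), and those between the treatments of Tyrobp to Fcgr2b (−0.39 to 0.29), Fcer1g to Fcgr2b (−1.07 to 0.27) and Fcgr2b to Syk (−0.30 to 0.03).

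The labels do not say whether replicate numbers pair the samples, and the main fit did not pair them. Over 10 same-numbered pairs the correlation of deviations from group means ran from −0.29 to 0.11. This cannot decide the question, because differently numbered samples were not compared in the same way. With the replicate number as a block 68, 123 and 30 genes were called, against 74, 123 and 32, and of the 12 values of the 4 genes only the call of Syk after hypoxia was lost (−0.70, adjusted p = 0.0585, edgeR). Depth limits Fcer1g most, with 2 to 24 raw counts after blood loss.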
